A study of Mus musculus with 4 samples.

Results

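The accessible sites described here lie in the major histocompatibility complex (MHC) of the mouse, on chromosome 17, around the class I genes H2-K1, H2-D1 and H2-T23. A peak of any of the 4 deposited lists was a member when its midpoint lay between 33800000 and 37500000 in build mm9, a stretch of 3.7 Mb. That gave 557 of the 84735 peaks, which merged into 241 of the 38986 regions of the whole series. The stretch and its genes were chosen by the peak calls and folds of these same libraries, since it holds the strongest site called in mutant and not in wild-type cells. Every difference between the genotypes below is therefore a description with no test.

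The mutant cells (DKO) came from mice with hCD2-Cre, Rosa26-lsl-GFP and floxed alleles of both Tcf1 and Lef1, and the wild-type cells (WT) from mice with the same Cre and reporter but unfloxed Tcf1 and Lef1. Tcf1 and Lef1 are closely related transcription factors that T cells need for their development, hCD2-Cre is a Cre recombinase driven by elements of the human CD2 gene in lymphocytes, and GFP marks cells in which Cre has acted. Splenic CD8+ T cells were sorted as GFP+, TCRbeta+, CD62Lhi and CD44lo-med, which is a naive surface state, kept for 72 h with IL-7 and IL-15, and digested with DNase I, which cuts open chromatin. There were 2 libraries per genotype. The labels give no age, sex, strain background or MHC haplotype, and leave unsaid whether a genotype's libraries are from different mice, so their spread may be technical only. The purity of the sort was not checked, since no mm9 annotation was used here.

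Class I molecules carry peptides from inside the cell to the surface, where CD8+ T cells read them. H2-K1 and H2-D1 encode the classical class I heavy chains H2-K and H2-D, which are highly polymorphic between mouse strains. H2-T23 encodes Qa-1, a less variable class I molecule that is recognised by inhibitory receptors of natural killer cells and some T cells. The reference genome comes from C57BL/6, a strain of the H2b haplotype. In the RefSeq gene order of GRCm38.p6, Tapbp, whose product loads peptides onto class I chains, precedes H2-K1. The peptide transporter genes Tap1 and Tap2, the immunoproteasome genes Psmb8 and Psmb9 and the class II genes H2-Ab1, H2-Aa and H2-Eb1 lie between H2-K1 and H2-D1. H2-D1 is followed by 6 protein-coding H2-Q genes before H2-T23, and H2-T23 by 12 protein-coding class I genes of the H2-M series. These genes are given by order, since GRCm38.p6 positions cannot be set beside mm9 peaks.

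The promoters of the 3 genes are printed because regions were called close to each gene. Each runs from 250 bases before to 50 bases after the first start that RefSeq lists on GRCm38.p6, 5′ to 3′ on the gene's own strand, and its coordinates belong to that build only. RefSeq lists 2 starts for H2-K1 and 1 each for H2-D1 and H2-T23, so the windows need not cover like positions. Capitals mark letters of any of 6 motifs searched on both strands. They were an NF-kB site of 11 bases and a strict form of the interferon response element (GAAA, any 2 bases, GAAA). The others were the CRE TGACGTCA, the CCAAT box, the Tcf/Lef core CTTTGA and the GC box GGGCGG.
H2-K1, GRCm38.p6 chr17:34000298-34000597, minus strand: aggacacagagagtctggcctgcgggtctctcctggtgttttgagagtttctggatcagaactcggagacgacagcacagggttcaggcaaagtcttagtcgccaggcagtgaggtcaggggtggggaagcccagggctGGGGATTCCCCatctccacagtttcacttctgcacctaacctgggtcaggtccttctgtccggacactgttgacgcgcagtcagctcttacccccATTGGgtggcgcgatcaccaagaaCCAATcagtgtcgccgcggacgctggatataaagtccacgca
H2-D1, GRCm38.p6 chr17:35262844-35263143, plus strand: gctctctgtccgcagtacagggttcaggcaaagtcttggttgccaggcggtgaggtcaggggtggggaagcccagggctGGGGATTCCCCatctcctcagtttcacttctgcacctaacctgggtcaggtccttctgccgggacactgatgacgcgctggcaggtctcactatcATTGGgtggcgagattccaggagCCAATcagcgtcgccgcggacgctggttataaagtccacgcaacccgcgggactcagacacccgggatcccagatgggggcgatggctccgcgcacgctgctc
H2-T23, GRCm38.p6 chr17:36032652-36032951, minus strand: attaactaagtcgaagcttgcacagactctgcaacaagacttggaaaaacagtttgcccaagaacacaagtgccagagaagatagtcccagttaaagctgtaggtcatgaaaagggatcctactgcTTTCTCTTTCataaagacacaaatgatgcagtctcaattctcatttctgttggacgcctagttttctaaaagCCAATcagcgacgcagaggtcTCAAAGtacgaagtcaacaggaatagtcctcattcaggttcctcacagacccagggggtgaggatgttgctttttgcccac

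The H2-K1 and H2-D1 windows resembled each other. Both hold the NF-kB letters and a pair of CCAAT boxes, 1 on each strand, and they share an identical run of 47 bases that contains these NF-kB letters, which are the longest run of capitals in each. They occur in 0.0304% of the 32851 promoters of the table, and CCAAT in 37.4%. The longest run that H2-T23 shares is 12 bases with H2-D1 and 8 bases with H2-K1. The H2-T23 window holds the interferon response letters, found in 3.44% of promoters, 1 CCAAT box, and the Tcf/Lef letters, found in 16% of promoters. The H2-K1 and H2-D1 windows have no match to those interferon response letters. Other forms of that element were not searched, so its absence from these windows is not shown. The CRE and GC box letters are in none of the 3 windows, and the Tcf/Lef letters are not in the H2-K1 and H2-D1 windows. A match of letters is not evidence of binding. Near-identical stretches such as the run of 47 bases can share reads between class I genes, and how reads with several matches were placed is not given in the sources used here.

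Among the regions called in all 4 libraries, the H2-K1 site had the largest excess of DKO over WT in scaled pileup, a measure given below. Near 34.13 Mb, the position given for H2-K1 to the nearest 10 kb, a region at chromosome 17, 34137161 to 34139203, was called in all 4 libraries. Its place relative to the promoter, exons and introns of H2-K1 was not determined, since no mm9 gene model was used here. At its summit, DKO replicates 1 and 2 had pileups of 701 and 531 fragments, against 23 and 20 in WT replicates 1 and 2. These pileups were solved from the authors' deposited fold and p and are not scaled for depth. The peak was 1982 and 1527 bp wide in the DKO libraries, against 343 and 188 bp in the WT libraries. Both DKO libraries were thus far above both WT libraries in height and in width. In each DKO list it was among the widest of all peaks, ranking 1 of 34788 and 2 of 21353. In the WT lists its width ranked 1310 of 17521 and 4824 of 11073. The summits nevertheless fell at nearly the same base, at 34137327 and 34137331 in DKO replicates 1 and 2, against 34137326 and 34137312 in WT replicates 1 and 2.

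The fold enrichment, the authors' ratio of the summit to its local background, showed less of this difference. It was 21.4 and 20.2 in the DKO lists, against 6.03 and 5.88 in the WT lists. The local background under the site was itself high in DKO, at 31.8 and 25.3 fragments, against 2.98 and 2.57 in WT. That is 25.9 and 22.1 times the lowest background of the DKO libraries, against 1.98 and 1.75 times that of the WT libraries. The next highest background in the interval was 4.55 and 3.18 times the lowest in DKO replicates 1 and 2. To set the libraries side by side, each pileup was divided by the library's own median pileup over the 8068 regions called in all 4 libraries. These medians were 45 and 27 in DKO replicates 1 and 2, against 24 and 20 in WT replicates 1 and 2. They are not a measure of depth alone, and division by them also removes any difference common to the shared regions. On this scale the H2-K1 site stood at 15.6 and 19.7 in DKO replicates 1 and 2, against 0.958 and 1 in WT replicates 1 and 2. The lower DKO value was 15.6 times the higher WT value. This ratio ranked 1 of 8068 shared regions, where the median was 0.822 and the second highest 1.94. Among the other 53 shared regions of the interval it ran between 0.417 and 1.28. The scale was chosen after the pileups had been seen. The labels give neither the MHC haplotype of the lines nor the number of copies of this sequence in their genomes, and peak lists do not read them. Their part in the result was not tested.

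**Figure D1:**
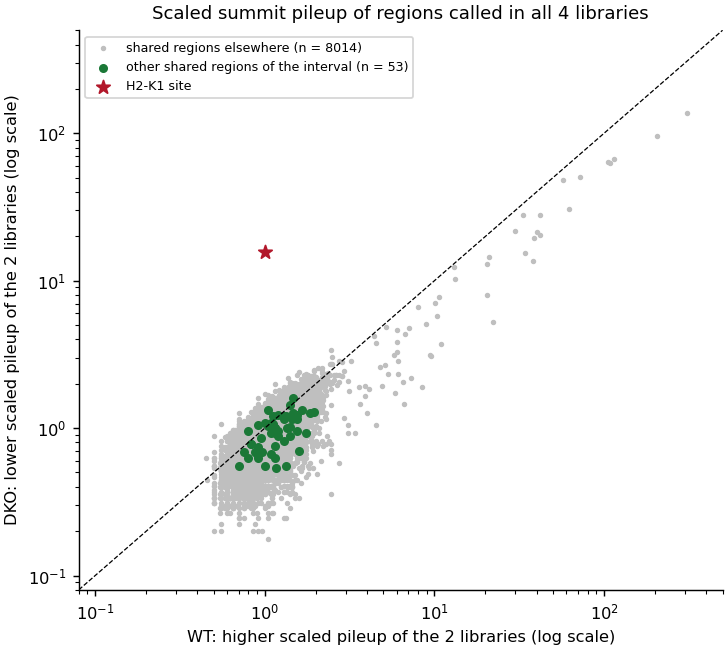
Scaled summit pileup of the 8068 regions called in all 4 libraries, as the lower value of the DKO libraries (vertical, log scale) against the higher value of the WT libraries (horizontal, log scale), each divided by the library's own median over these regions; the dashed line marks equality. The H2-K1 site (star) lies at 15.6 for DKO against 1 for WT, away from the 53 other shared regions of the interval (green) and the shared regions elsewhere (grey).

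The other 6 regions within 25 kb of the H2-K1 position were ordinary in size. The nearest, at 34128881 to 34129149, had folds of 9.85 and 5.35 in DKO replicates 1 and 2, against 5.07 in WT replicate 2 and no call in WT replicate 1. The region at 34118116 to 34118490 was called in all 4 libraries, with folds of 13.3 and 8.01 in DKO, against 6.54 and 6.03 in WT. At 34105560 to 34105768 the folds were 19.5 and 13.2 in DKO, against 10.4 in WT replicate 1 alone. A smaller neighbour at 34105830 to 34106109 was called in DKO replicate 1 and WT replicate 1, with folds of 4.94 and 4.17. Calls without any WT peak were those at 34115757 to 34115968, with folds of 5.61 and 4.62 in DKO, and at 34119243 to 34119334, with 5.91 in DKO replicate 2 alone. Their pileups reached at most 54 fragments in DKO and 31 in WT, so the high signal was limited to the 1 region among these 7.

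The H2-D1 position showed no such signal. The region that covers 35.4 Mb, at 35399589 to 35400107, was called in all 4 libraries. It had pileups of 44 and 26 fragments in DKO, against 21 and 23 in WT, and folds of 10.3 and 7.22 in DKO, against 5.32 and 6.27 in WT. Both DKO libraries were above both WT libraries in these unscaled pileups and in fold. Divided by each library's shared median as above, the pileups were 0.978 and 0.963 in DKO, against 0.875 and 1.15 in WT, so the order did not hold on that scale. Division by the lowest background, which was lower in both DKO libraries than in both WT libraries, would keep the order. A second region called in all 4 libraries, at 35395216 to 35395409, was the 1 shared region of the interval in which both WT folds were above both DKO folds. Its folds were 5.38 and 5.48 in DKO, against 7.20 and 6.64 in WT, and its pileups were 25 and 20 fragments in DKO, against 32 and 24 in WT. These pileups are not scaled for depth, and the genotypes overlapped in them. Scaled by the shared medians they were 0.556 and 0.741 in DKO, against 1.33 and 1.20 in WT, with no overlap. The ratio of the lower DKO to the higher WT value, 0.417, was the lowest of the 54 shared regions of the interval. Division by the lowest background would leave the genotypes overlapping, so their separation in pileup depends on the scale. Both WT folds were above both DKO folds in 0.806% of the 8068 shared regions.

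Around H2-D1 there were 4 further regions. The region at 35391786 to 35391892 was called in DKO only, with folds of 11.7 and 8.04. That at 35378295 to 35378778 had folds of 8.50 and 7.61 in DKO, against 4.40 in WT replicate 1 alone. Single libraries of both genotypes called 35396110 to 35396285, with a fold of 5.90 in DKO replicate 1 and 4.38 in WT replicate 1. The region at 35411849 to 35411953 was called in DKO replicate 1 alone, with a fold of 9.87. Of the 6 regions around H2-D1, DKO replicates 1 and 2 thus called 6 and 4, against 4 and 2 in WT replicates 1 and 2. Over all regions of the series, DKO replicates 1 and 2 called 88.6 and 53.9%, against 44.5 and 28.2% in WT replicates 1 and 2. The order of the libraries at H2-D1 is thus that of the whole series, and nothing particular to H2-D1 is read from it.

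At H2-T23, of the 7 regions within 25 kb, DKO replicates 1 and 2 called 6 each, against 3 and 2 in WT replicates 1 and 2. As at H2-D1, more calls in the DKO lists are what the series shows throughout. The region nearest to 36.17 Mb, at 36169537 to 36169830, had folds of 12.4 and 6.48 in DKO, against 4.08 in WT replicate 1 and no call in WT replicate 2. The pileups were 39 and 16 fragments in DKO, against 12 in WT replicate 1. Both regions beside it were called in DKO and in neither WT list. They lay at 36168852 to 36169015, with folds of 8.03 and 5.75, and at 36172326 to 36172516, with folds of 11.6 and 10.7. The one called in all 4 libraries lay at 36179582 to 36179997, with folds of 9.36 and 9.30 in DKO, against 6.64 and 5.66 in WT. The other regions, at 36157331, 36157639 and 36160686, had folds between 4.28 and 8.56 in the libraries that called them.

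**Figure D2:**
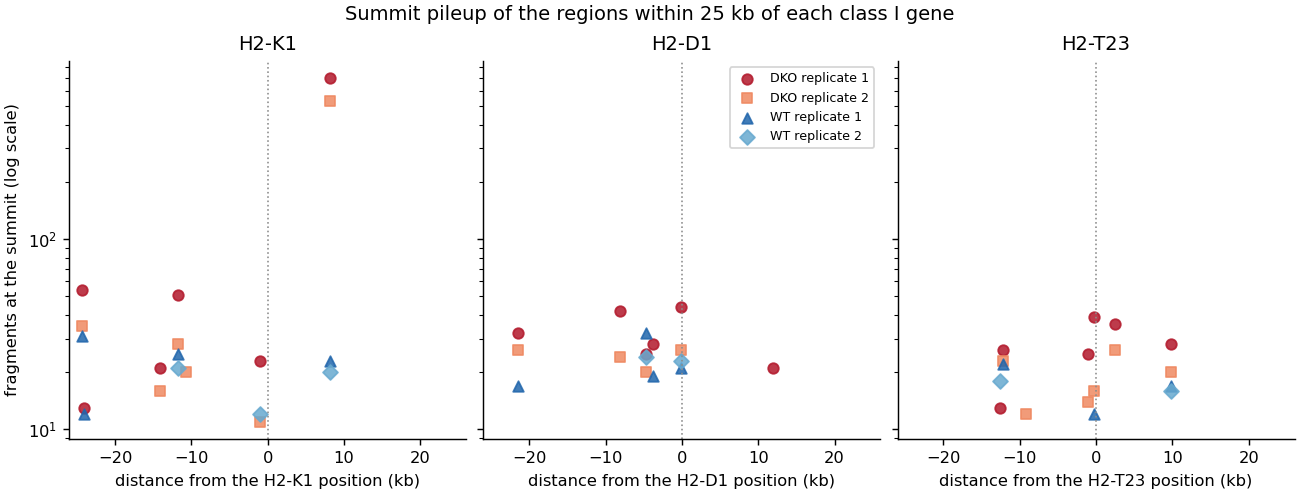
Fragments at the summit (vertical, log scale, solved from the authors' fold and p, not scaled for depth) of each region within 25 kb of the H2-K1, H2-D1 and H2-T23 positions, by distance in kb, with 1 symbol per library that called the region. At the H2-K1 site the DKO libraries stand at 701 and 531 and the WT libraries at 23 and 20, while every other point in the 3 panels is at 54 or below.

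The strongest DKO-only region of the whole series, ranked by the lower of its DKO folds, lay farther along, at 36621604 to 36621923, near 36.622 Mb. Its folds of 45.6 and 45.0 in DKO replicates 1 and 2, which chose it, were followed genome-wide by a region on chromosome X whose lower fold was 33.1. Within their lists these folds ranked 10 of 34788 and 8 of 21353. The pileups were 227 and 159 fragments, or 5.04 and 5.89 times the median of the shared regions of the same library. The summits were 4 bp apart and the widths were 320 and 311 bp, so the site was narrow, unlike the H2-K1 site. The local background was 3.25 and 2.23 times the lowest of the library, against 25.9 and 22.1 times at the H2-K1 site.

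This site stood alone. No other region lay within 66.0 kb before it or 304 kb after it, while the median distance from a region of the interval to its nearest neighbour was 3481 bp. The region before it, at 36555387 to 36555555, had a fold of 13.0 in DKO replicate 1 and 4.78 in WT replicate 1. The region after it, at 36925902 to 36926032, was called in DKO replicate 1 alone, with a fold of 11.2. The nearest regions called in all 4 libraries lay 227 kb before it, at 36394696 to 36394989, and 352 kb after it, at 36973843 to 36974166. The WT libraries had no call over 418 kb around the site, from 36555556 to 36973842, their longest empty stretch in the interval. In that stretch DKO replicate 1 called 4 regions and DKO replicate 2 called 2. No call was made in any library from 36621924 to 36925901, the longest of the empty stretches, followed by 34548322 to 34692576 and 34850215 to 34973852, of 144 and 124 kb.

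Among the other DKO-only regions, none came near these values. The interval held 40 DKO-only regions, or 16.6% of its 241, against 14.3% of all regions of the series. Without the strongest site, the folds of the remaining 39 ran between 5.25 and 13.5 in DKO replicate 1, with a median of 9.13, and between 4.04 and 11.1 in DKO replicate 2, with a median of 6.01. Over all DKO-only regions of the series these medians were 8.16 and 6.06. In the series, 927 of the 5593 DKO-only regions reached 8-fold in DKO replicates 1 and 2 alike. In the interval, 5 of the 40 did. Beside the strongest site and the regions at 36172326 and 35391786 given above, these were 34306350 to 34306492, with folds of 12.5 and 11.1, and 35561695 to 35561830, with folds of 9.85 and 9.04. The next 5 were 36055990 to 36056141, with folds of 9.13 and 7.96, 35621108 to 35621257, with 11.7 and 7.92, and 36368462 to 36368582, with 8.62 and 7.46. They ended with 35226391 to 35226544, with 8.42 and 7.08, and 34548171 to 34548321, with 9.87 and 6.99.

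WT-only calls were rare in the interval. A single region, at 34084791 to 34085043, was called in both WT lists and neither DKO list, with folds of 4.87 and 5.22 and pileups of 16 fragments in each. It is 0.415% of the 241 regions, against 0.631% of all regions. With all lists held to the 11073 peaks of highest significance, DKO-only regions numbered 8 of 121 in the interval (6.61%) and WT-only regions 3 (2.48%), against 5.75% and 4.61% of all regions at that length. Regions called in all 4 libraries at that length numbered 41 (33.9%), against 29.3% of all regions. Counting any call in 1 genotype and none in the other, 120 regions (49.8%) were called in DKO and no WT list, against 50.3% of all regions, and 5 (2.07%) in WT and no DKO list, against 6.4%. The DKO-only shares in the interval were near those of the series, at full and at equal list length. The genotypes also differed in calls on chromosome Y, with 55 and 57 peaks in DKO, against 0 and 0 in WT. These calls divide the libraries just as genotype does. A part of sex in any difference between DKO and WT therefore cannot be told apart from genotype, and was not tested.

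**Figure D3:**
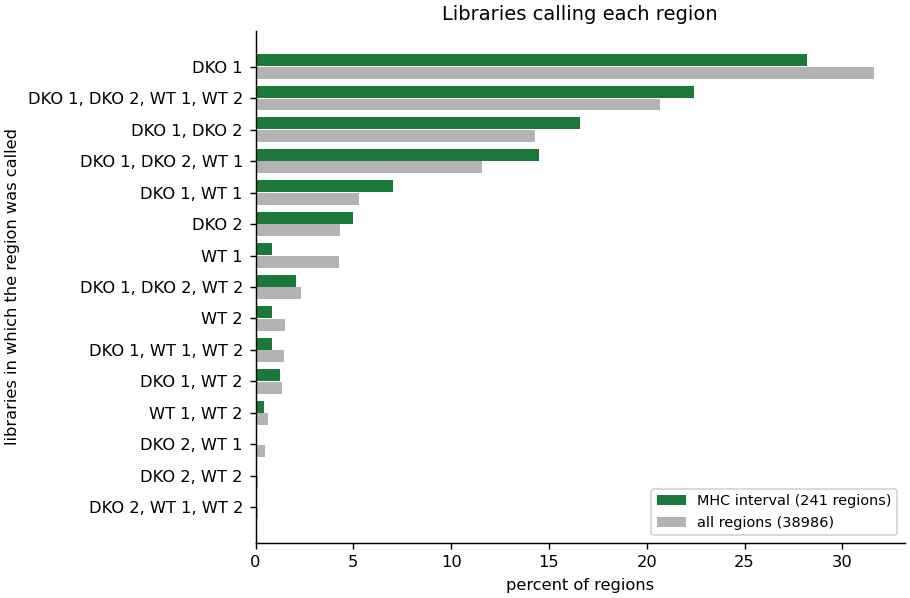
Percent of regions (horizontal) called in each combination of the 4 libraries (vertical), for the 241 regions of the MHC interval (green) and all 38986 regions (grey). Regions called in both DKO libraries alone make up 16.6% of the interval and 14.3% of all regions, and those called in all 4 libraries 22.4% and 20.7%.

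Sites shared by all 4 libraries numbered 54, or 22.4% of the regions of the interval, against 20.7% of all regions. Their median folds were 12.5 and 9.05 in DKO replicates 1 and 2, against 7.05 and 6.45 in WT replicates 1 and 2. Over all shared regions of the series the medians were 13.2 and 9.59 in DKO, against 7.51 and 6.61 in WT. In 45 of the 54 both DKO folds were above both WT folds. Of all shared regions 76.9% had this order, so it is common to the series and not read as a property of the MHC. The strongest shared site by its lowest fold was 34371958 to 34372260, with folds of 21.3 and 14.8 in DKO, against 14.8 and 14.0 in WT. Here DKO replicate 2 and both WT libraries were close together. It was followed by 34781543 to 34781836, with folds of 17.8 and 11.2 in DKO, against 9.40 and 10.2 in WT, and by 35068025 to 35068285, with 17.7 and 14.1 in DKO, against 10.1 and 8.94 in WT. At 34027539 to 34027991 the folds were 20.8 and 13.5 in DKO, against 10.5 and 8.42 in WT. The remaining 6 of the 10 strongest lay at 35323682, 33961363, 36973843, 37340638, 35557467 and 33855575, with lowest folds between 7.41 and 8.31.

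Calls became sparser along the complex. From the start of the interval to the H2-K1 position there were 100 regions per Mb, then 83.5 per Mb up to the H2-D1 position, 72.7 per Mb up to the H2-T23 position and 34.6 per Mb beyond it. The share called in all 4 libraries was 24.2, 22.6, 26.8 and 15.2% in these segments, against 20.7% of all regions of the series. The share of DKO-only regions was 9.09, 15.1, 17.9 and 23.9%, against 14.3% of all regions. It rests on 3, 16, 10 and 11 DKO-only regions. Each segment holds between 33 and 106 regions. Beyond H2-T23 the DKO lists had 43 and 26 peaks, or 0.124 and 0.122% of each list, against 18 and 11 peaks in WT, or 0.103 and 0.0993%. The densest of the 37 windows of 100 kb ended at the H2-D1 position. Windows held a median of 6 regions. From 35300001 to 35400000 there were 21, of which 20 and 14 were called in the DKO lists, against 10 and 6 in the WT lists. Over all regions of the series these shares were 88.6 and 53.9% in DKO, against 44.5 and 28.2% in WT, and the window's libraries stood in the same order. The window from 34300001 held 15 regions, and those from 34000001, 34200001 and 36100001 held 14 each.

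**Figure D4:**
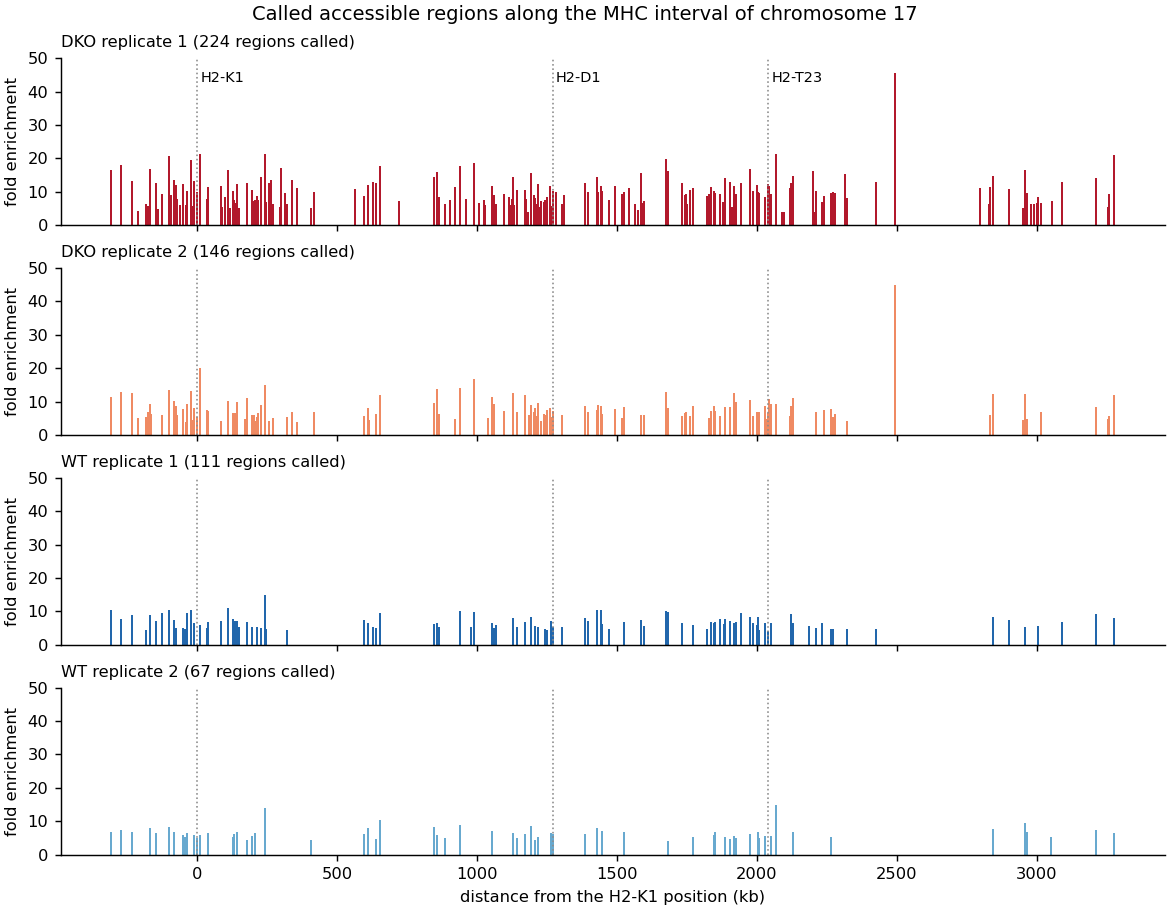
Fold enrichment (vertical, the authors' ratio of summit to local background) of every region called in each library, by distance in kb from the H2-K1 position (horizontal), with dotted lines at the 3 gene positions. The single tall line of 45.6 and 45.0 in the DKO panels stands in an empty stretch, and the H2-K1 site, at 21.4 and 20.2, has the next highest fold of the interval in both DKO libraries, close to that of other regions in DKO replicate 1.

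Peak numbers in the interval moved with the lengths of the lists. The DKO lists held 228 and 149 peaks there, against 112 and 68 in the WT lists. Means were 188.5 ± 55.9 in DKO and 90.0 ± 31.1 in WT (SD, n = 2 each), a difference of 1.08 on the log2 scale, against 0.97 over the whole lists. These peaks made up 0.655 and 0.698% of the DKO lists, against 0.639 and 0.614% of the WT lists, so the interval took a like share of each list. The median background at its peaks was 1.61 and 1.54 times the library's lowest in DKO, against 1.58 and 1.56 times in WT. The DKO and WT values overlap, and both are far under those of the H2-K1 site in DKO. The first region inside the interval, at 33821683, was called in DKO replicate 1 with a fold of 9.93, and the last region before it, at 33766244, in the same library with 9.43. At the far end, 37407692 to 37408043 was called in all 4 libraries, and the next region began at 39198528.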

How the data were processed

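DNase-seq peak lists of 4 libraries, 2 DKO and 2 WT, were used. Genotype and replicate number came from the sample titles. Per the submitters' processing notes, the tools were FastQC, Bowtie2 2.2.5 and MACS2 2.1.1, on build mm9, with no settings given. Peaks were called per library. The authors deposited for each peak a fold enrichment, which is a ratio, the −log10 p and −log10 q, and a score of 10 times the −log10 q. Starts count from 0 in the files and from 1 here. Read depth is not in the lists.

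Summit pileup and local background were solved for every peak from its fold and p, taking the fold as a ratio with 1 added above and below and the p as an upper Poisson tail. The solved pileup was whole within 0.02 for 100% of peaks in each library. The lowest background was 1.23 and 1.15 fragments in DKO replicates 1 and 2, and 1.50 and 1.47 in WT. Where no control library sets it, it grows with depth. A site's own reads can enter its local background.

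Peaks overlapping by at least 1 bp formed regions. DKO-only means called in both DKO and neither WT list, and WT-only the reverse. A missing call means only that a site was not listed. For a region with several peaks of a library, the one of highest −log10 p was used. Regions named are those within 25 kb of a member position, the 10 strongest DKO-only by lower fold, all WT-only, the 10 strongest shared by lowest fold, the neighbours of the strongest site, and the densest windows and longest empty stretches. The interval, members and lists were chosen with earlier results of these data known. Promoter sequences and gene order are RefSeq's on GRCm38.p6, and 11 of 12 single gene names matched by symbol. With 2 libraries per genotype the smallest exact two-sided permutation p is 0.33, and none was computed. The code was tested on simulated data. Python 3.11.15, pandas 2.3.3, numpy 2.4.6, scipy 1.17.1 and matplotlib 3.10.9 were used.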

Additional observations from a re-analysis of the deposited data

Results flagged for a closer look

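Peaks on chromosome Y lie outside the interval and appeared in DKO replicates 1 and 2, 55 and 57 of them, against 0 and 0 in WT replicates 1 and 2. The labels give no sex, and a difference of sex between the genotypes cannot be told apart from genotype in these libraries.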

How the results depend on the processing

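With the replicate number as a replicate block, the log2 difference in peak number was 1.08, the same by construction, and no test was run with or without the block. At a −log10 q of at least 10, DKO-only regions numbered 25 and regions called in all 4 libraries 21, since fewer peaks remain. The DKO-only share at that cut was 14.2% of the 176 regions of the interval, against 16.6% of all regions. In the full lists the interval had the higher share. At equal list lengths there were 8 DKO-only and 3 WT-only regions, and the log2 difference was 0.15. A reciprocal overlap of 50% gave 3 WT-only regions. A call in at least 1 library of a genotype and none of the other gave 120 regions for DKO and 5 for WT. Within 250 kb of a member position there were 24 DKO-only regions, or 15.4% of 156, against 14.3% of all regions of the series. Leaving out 1 library gave between 45 and 108 DKO-only regions, the highest without DKO replicate 2, and 76 without WT replicate 1. It gave between 1 and 3 WT-only regions, with 3 without DKO replicate 1, WT replicate 1 or WT replicate 2. Regions called in every remaining library numbered between 54 and 89, the highest without WT replicate 2. The shares over all regions of the series were not computed for these settings. The log2 difference ran from 0.72, without WT replicate 2, to 1.44, without WT replicate 1. DKO-only regions outnumbered WT-only regions in each setting in which both were counted, and the log2 difference was above 0 in each setting in which it was computed. The whole series had the same order, with 5593 DKO-only against 246 WT-only regions in full lists. At equal list length these were 1057 against 847, and the log2 difference over the whole full lists was 0.97. Neither order is therefore read as a property of the interval. The log2 difference was not computed where regions, their classes or the interval were redefined, and WT-only regions were not counted for other intervals. The scaled pileup ratio at the H2-K1 site, 15.6, was 24.4 when scaled by the median of the whole list and 30.2 when scaled by the lowest background, and ran from 15.6 to 19.7 without 1 library. These settings for the H2-K1 site were chosen after seeing the data.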

Other observations

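A region at 36197882 to 36198161 was named after its values were seen, because it held the highest pileup of WT replicate 2 in the interval. Its folds were 21.3 and 9.16 in DKO replicates 1 and 2, against 14.9 in WT replicate 2 and no call in WT replicate 1. The pileup in WT replicate 2 was 55 fragments.

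In the 54 shared regions, the farthest summits of a region were a median of 37 bp apart, with a range of 4 to 462 bp, and 31 of the 54 kept within 50 bp. Over all shared regions the median was 44 bp, and 53.7% kept within 50 bp. As a description over these 54 regions, which share their libraries, Spearman's rho of the folds was 0.67 between the DKO libraries and 0.47 between the WT libraries, and between 0.31 and 0.46 across genotypes.

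Overlap between replicates was close to that of the whole series. Of the regions called in DKO replicate 2, 91.8% were called in DKO replicate 1, against 90.7% over the series, and the reverse share was 59.8%, against 55.2%. Of those called in WT replicate 2, 85.1% were called in WT replicate 1, against 81.3% over the series, and the reverse share was 51.4%, against 51.5%.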
